A study of Mus musculus with 32 samples.

Results

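The BTB zinc finger genes with a Zbtb symbol were described in MeDIP-seq data from brain, heart, kidney and liver of mice. MeDIP-seq uses an antibody against 5-methylcytosine (5mC) to pull down methylated DNA, which is then sequenced, so a higher value means more precipitated reads on a gene. Members were the rows of the deposited table whose symbol is Zbtb, a number and at most 1 letter, with Zbtb33 left out. The rule took 39 of 27179 genes, and all 39 passed the filter on low values (at least 1 CPM, the read count scaled to library size, in at least 2 libraries). Tissue of each organ had been flash-frozen or fixed in formalin and embedded in paraffin (FFPE), and the labels list 16 antibody samples and 16 Input samples in groups of 2. The table has 1 column for each organ and preservation, 8 in all, and each is called a library here. The column names give neither antibody nor replicate, so reading them as 5mC values is an assumption, and a column may be 1 sample or a pool. The sources used here do not give strain, sex, age, treatment or how many animals there were.

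BTB zinc finger proteins join a BTB domain at the N-terminus to C2H2 zinc fingers at the C-terminus. The zinc fingers bind DNA, and the BTB domain pairs the protein with itself or a relative and brings in corepressors such as BCOR, so most members act as transcriptional repressors. The family is known for steering blood cell lineages, and a few members, Zbtb4 and Zbtb38 among them, bind methylated CpG themselves. Whole organs are mixtures of cells, so a change in the share of a cell type and a change in methylation within cells cannot be told apart.

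All 39 members were found by gene ID in RefSeq (GRCm38.p6) on 14 chromosomes, with gene spans from 2309 to 758704 bases. A promoter window (250 bases before to 50 after a transcription start) was listed for 34 of them. These windows held a median of 25.5 CpG dinucleotides, from 1 to 51, against a median of 13.0 in the first listed windows of 18458 genes of the table. The median GC content was 66.3%, against 56.0%. The letters CGCG, 2 neighbouring CpG, which read alike on both strands and which Kaiso-type proteins can bind when methylated, stood in 26 windows (76.5%), against 49.0% of all windows. The Kaiso letters TCCTGCNA were found on either strand in 1 window (2.9%), against 4.8% of all. The deposited counts are per gene, so they do not say whether precipitated reads came from these windows. The bases before the start are shown for the 3 members whose brain and liver calls held in every alternative run, for Zbtb20, whose window is poor in CpG, and for Zbtb32, the member called lower in liver. They are printed from RefSeq, 5′ to 3′ on the gene's strand, with each CpG in capitals.
Zbtb7a (chr10:81136021-81136270, plus strand): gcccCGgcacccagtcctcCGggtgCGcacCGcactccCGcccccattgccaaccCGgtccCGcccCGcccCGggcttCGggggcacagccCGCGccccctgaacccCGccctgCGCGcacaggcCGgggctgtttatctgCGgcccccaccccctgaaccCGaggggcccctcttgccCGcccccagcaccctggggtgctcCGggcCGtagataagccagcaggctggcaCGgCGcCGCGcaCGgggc
Zbtb14 (chr17:69382925-69383174, plus strand): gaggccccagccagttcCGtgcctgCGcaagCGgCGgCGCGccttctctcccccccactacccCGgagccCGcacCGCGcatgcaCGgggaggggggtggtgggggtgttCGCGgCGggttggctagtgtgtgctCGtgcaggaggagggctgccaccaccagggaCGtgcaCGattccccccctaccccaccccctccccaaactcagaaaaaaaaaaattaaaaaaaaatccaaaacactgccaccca
Zbtb17 (chr4:141444423-141444672, plus strand): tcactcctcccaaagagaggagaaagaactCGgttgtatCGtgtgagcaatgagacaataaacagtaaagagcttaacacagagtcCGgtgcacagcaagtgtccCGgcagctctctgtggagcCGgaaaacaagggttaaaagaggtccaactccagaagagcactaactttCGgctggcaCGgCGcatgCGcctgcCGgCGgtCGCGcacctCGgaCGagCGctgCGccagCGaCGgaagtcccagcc
Zbtb20 (chr16:43247034-43247283, plus strand): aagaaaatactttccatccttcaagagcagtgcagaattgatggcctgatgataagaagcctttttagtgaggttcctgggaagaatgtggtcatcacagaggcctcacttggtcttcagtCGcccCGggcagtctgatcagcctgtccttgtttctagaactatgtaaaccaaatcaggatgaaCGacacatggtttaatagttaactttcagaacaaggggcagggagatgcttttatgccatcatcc
Zbtb32 (chr7:30598910-30599159, minus strand): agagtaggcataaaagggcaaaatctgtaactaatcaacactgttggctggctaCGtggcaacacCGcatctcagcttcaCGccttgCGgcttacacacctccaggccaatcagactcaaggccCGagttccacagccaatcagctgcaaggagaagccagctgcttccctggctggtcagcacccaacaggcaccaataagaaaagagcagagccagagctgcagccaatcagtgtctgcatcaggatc
Zbtb7a held 26 CpG in these 250 bases, Zbtb14 held 17 and Zbtb17 held 19. Zbtb20 held 3 and Zbtb32 held 5. The windows of Zbtb7a, Zbtb20 and Zbtb32 lie inside the annotated gene span and not at its edge.

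The libraries held 2164158 to 3699218 reads on genes, and the median member had 123 to 328 reads. Members took 0.257% (95% Clopper-Pearson interval 0.250 to 0.264, counting error only) of the reads in frozen brain and 0.417% (0.410 to 0.424) in FFPE liver, with the other libraries between. Libraries differed in how widely log2 values spread over all tested genes, from an SD of 1.75 in frozen brain to 2.67 in frozen kidney, with 2.49 and 2.60 in frozen and FFPE liver. The median member lay at the 81.1st to 91.4th percentile of its library, which is high in the range. Frozen kidney had 0 reads on 2999 genes, against 880 to 2380 in the others. Marker genes are known by expression, which these data do not measure. Of them, limma called 9 of 10 hepatocyte markers lower in liver (7.42% of all tested genes) and 5 of 10 cardiomyocyte markers lower in heart (1.97%). In brain 5 of 10 neuron markers were lower (12.8%), and in kidney 0 of 10 kidney tubule markers were called. Calls also fell outside the markers' own organ: 5 of 10 cardiomyocyte and 3 of 10 neuron markers were higher in liver and 0 lower, against 11.8% of all tested genes higher.

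**Figure D1:**
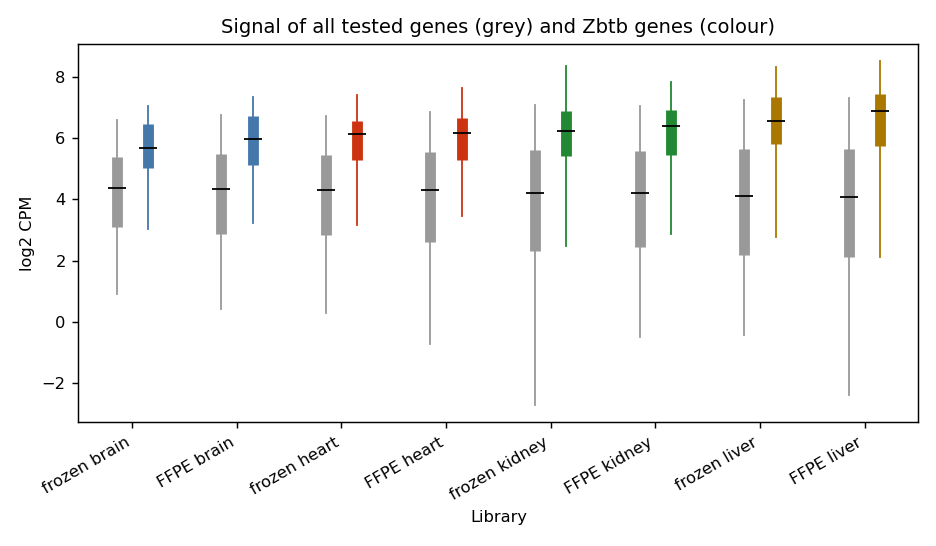
log2 CPM (vertical axis) in each library, with thick bars from the lower to the upper quartile, black ticks at the median and thin lines from the 5th to the 95th percentile for all tested genes (grey) and from the lowest to the highest value for the 39 Zbtb genes (colour). The member median rises from 5.69 in frozen brain to 6.90 in FFPE liver, while the median of all genes goes from 4.37 to 4.08.

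Levels of members are compared here as the mean CPM over the 8 libraries (geometric) per kilobase of gene span, although the sources used here do not say which part of a gene was counted. Zbtb39 was highest at 26.0 CPM per kilobase, followed by Zbtb14 at 23.0 and Zbtb45 at 18.2. Zbtb20, whose span of 759 kilobases is the longest, was lowest at 0.188. Zbtb46 stood at 0.266, Zbtb7c at 0.403 and Zbtb16 at 0.426. The median member had 3.36 CPM per kilobase.

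Most members had their lowest signal in brain and their highest in liver. On the mean of frozen and FFPE tissue, 24 of 39 members had their lowest signal in brain and 30 had their highest in liver, and 20 had both. In frozen tissue alone 24 members were lowest in brain and 26 highest in liver, and in FFPE tissue alone 25 and 28. Of the 20 members with brain lowest and liver highest, 12 had kidney above heart. The same counts were not made over all tested genes, so they do not set the family apart. Of genes in the top 25% by mean level, where 29 members lie, limma called 36.9% lower in brain and 35.2% higher in liver. Zbtb44 and Zbtb48 varied least, by 0.40 and 0.49 on the log2 scale over the 8 libraries, and Zbtb6 varied most, by 2.51, at 11 to 59 reads.

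**Figure D2:**
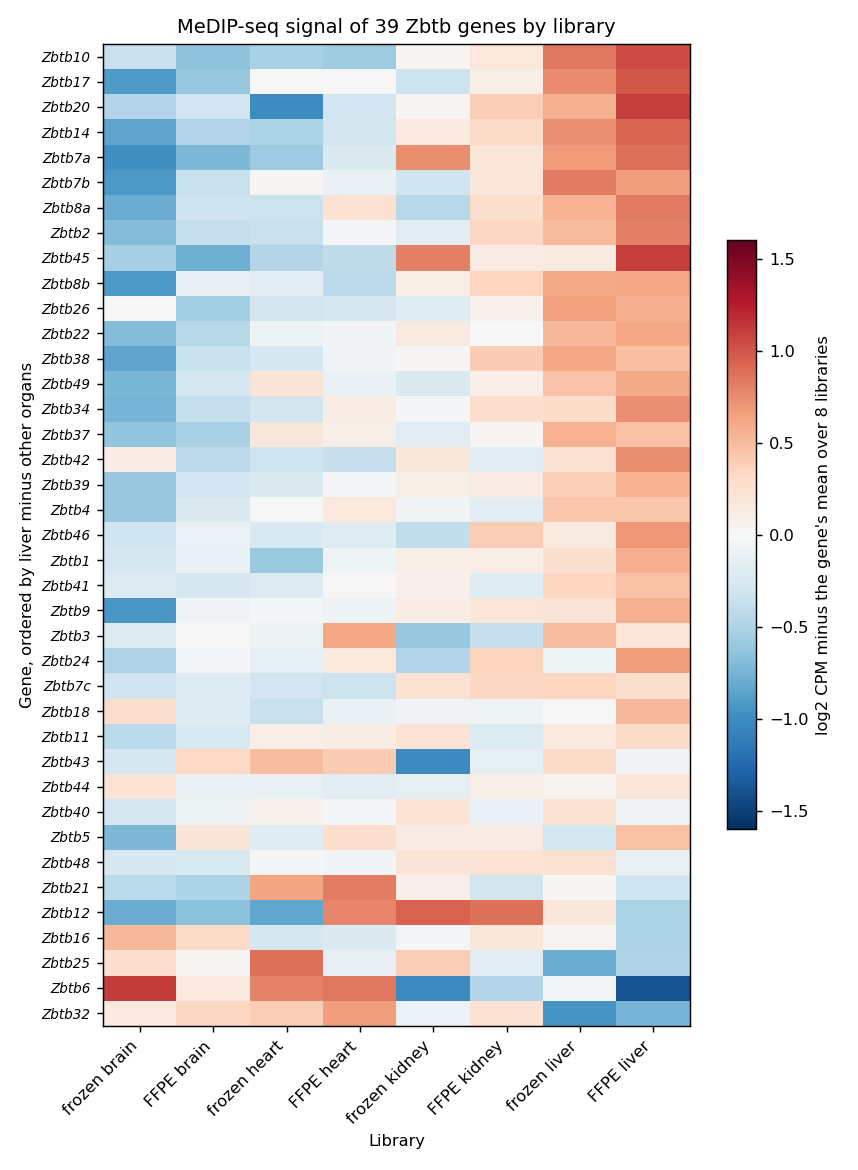
Each row is a Zbtb gene, ordered by its liver difference, and each column a library. Colour gives log2 CPM minus the gene's mean over the 8 libraries, red above and blue below. The 2 brain columns are blue and the 2 liver columns red for most of the upper rows, and the order turns at the bottom for Zbtb16, Zbtb25, Zbtb6 and Zbtb32.

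Organs were compared as each organ minus the mean of the other 3, by limma on log2 CPM with a term for preservation, with Benjamini-Hochberg adjustment over 25982 tested genes and a threshold of 0.05. Each organ and preservation has 1 library, so a gene's own spread is how far its organ differences changed between frozen and FFPE tissue. The fit moved this spread toward that of genes with a similar level (3 residual and 13.1 prior degrees of freedom). The standard errors and p-values therefore do not measure a gene's own agreement between preservations alone. In brain, 19 of 39 members (48.7%) were lower, against 12.8% of all tested genes, and 1 was higher, against 8.61%. The member median was -0.52, against 0.11 for all genes. By mean level 29 members lie in the top 25% of tested genes, where 36.9% of genes were called lower in brain and the median was -0.34. With all libraries given the same distribution (quantile normalization) 12 members were lower (11.0% of all tested genes) and 1 higher (9.97%). The top 25% then had 18.1% lower, and the member median was -0.31. Of all genes called in brain 40.2% were higher, and 24.7% after centring each library on its median, which moved the median of all genes to -0.04 and gave 25 lower members and 0 higher. After centring, 4875 of the 25982 tested genes were lower in brain and 1603 higher. The lower count was 4 without the frozen brain library, where 2.52% of all tested genes were lower, and 10 without FFPE brain, where 6.41% were. The higher one, Zbtb16, was lost without frozen brain (adjusted p = 0.342), FFPE brain (0.163), frozen heart (0.089), FFPE heart (0.0569) or FFPE liver (0.0783), after centring (0.0987) and without the preservation term (0.0551).

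In liver, 21 of 39 members (53.8%) were higher, against 11.8% of all tested genes, and 1 was lower, against 7.42%. The member median was 0.57, against -0.10 for all genes. In the top 25% by mean level 35.2% of genes were higher in liver, with a median of 0.31. Under quantile normalization 7 members were higher (5.1% of all tested genes) and 2 lower (4.98%), and the top 25% had 11.2% higher. The member median was then 0.23. Of all genes called in liver 61.3% were higher, against 50.6% under quantile normalization and 79.6% after centring. Centring moved the median of all genes to 0.10 and gave 26 higher members. It also gave 4832 higher and 1240 lower of all 25982 tested genes in liver, against 3056 and 1929 before. The higher count was 10 without FFPE liver (3.75% of all tested genes) and 9 without frozen liver (3.97%), and 0 members were lower when one or the other was left out. The part of the wider spread of the liver libraries in the remaining counts was not tested. Of the 39 members, 17 were called both lower in brain and higher in liver, and the share of all tested genes with both calls was not counted. These comparisons share all 8 libraries, so the calls are not independent of each other. Both liver libraries lay above all 6 others for 20 members (11.7% of all tested genes), and both brain libraries lay below all others for 16 (11.7%). In the opposite directions 1 member had both brain libraries on top (16.5%) and 2 had both liver libraries at the bottom (10.3%).

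**Figure D3:**
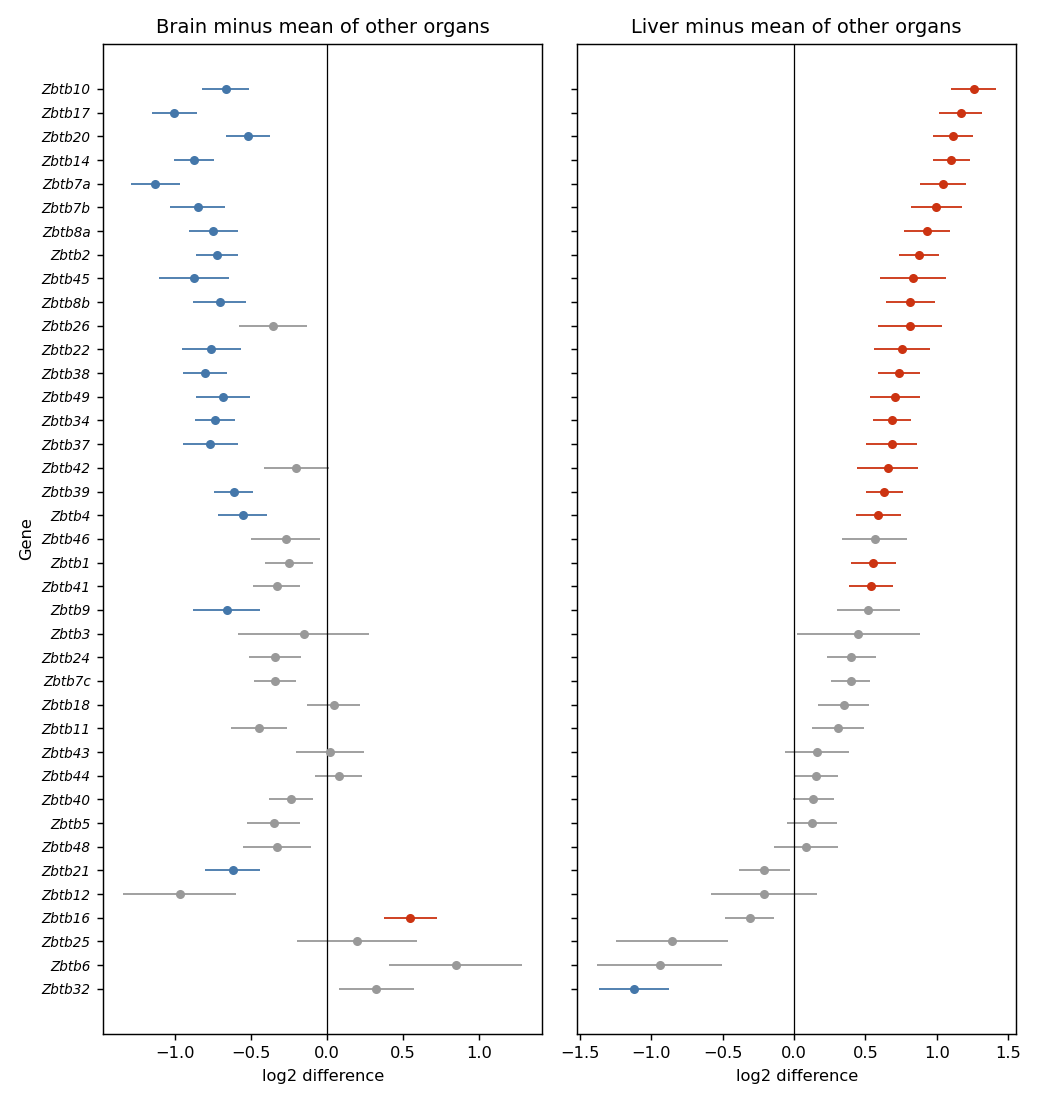
log2 difference (horizontal axis) with its standard error for each Zbtb gene in brain (left) and liver (right), each against the mean of the other 3 organs; blue is called lower, red called higher and grey not called. The 19 lower calls in brain run from -1.13 to -0.52 and the 21 higher calls in liver from 0.54 to 1.26, with Zbtb32 lower in liver and Zbtb16 higher in brain.

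Zbtb4 and Zbtb38, listed here as members that bind methylated CpG through their zinc fingers, each had the brain call and the liver call. In the whole family 17 members had both calls, so these 2 genes do not set the role apart. Of all tested genes 12.8% were called lower in brain and 11.8% higher in liver. Among the genes highest in mean level, the group described above that holds 29 members, these shares were 36.9% and 35.2%. Zbtb38 (chromosome 9, 96682767 to 96731675) had 91.5 CPM in frozen brain, 137 in heart, 167 in kidney and 253 in liver, and 128, 158, 218 and 229 CPM in the FFPE libraries in the same order. Both brain libraries were below and both liver libraries above all others. In log2, liver differed by 0.73 ± 0.15 (SE; limma, adjusted p = 0.00248) and brain by -0.80 ± 0.15 (adjusted p = 0.00154). For Zbtb4 (chromosome 11, 69765912 to 69784026) the frozen libraries read 51.5 CPM in brain, 78.1 in heart, 75.1 in kidney and 106 in liver, and the FFPE libraries 66.5, 87.5, 69.7 and 106. It was lower in brain (-0.56 ± 0.16, adjusted p = 0.0219) and higher in liver (0.59 ± 0.16, adjusted p = 0.0165). Quantile normalization ended both Zbtb4 calls and the liver call of Zbtb38. The brain call of Zbtb38 was lost without frozen brain (adjusted p = 0.115) and its liver call without frozen liver (0.166). Zbtb4 lost the brain call without FFPE brain (0.063), frozen brain (0.419), FFPE heart (0.0641), frozen heart (0.0515) or frozen liver (0.053), and the liver call without frozen heart (0.0513), FFPE liver (0.115) or frozen liver (0.219).

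Of the 8 members known from lymphoid and myeloid cells, 3 were lower and 1 higher in brain, and 4 were higher and 1 lower in liver. Of all genes in the top 25% by mean level 36.9% were lower in brain and 35.2% higher in liver. Zbtb7a (chromosome 10, 81135225 to 81152222) encodes LRF, a factor of blood cell fate that also silences fetal globin genes. Its signal was 102 CPM in frozen brain, 134 in heart, 335 in kidney and 320.0 in liver, and 122, 171, 228 and 369.5 CPM in FFPE tissue. Brain lay below all other libraries, and frozen kidney lay between the liver libraries. The brain value was 2.19-fold lower (log2 -1.13 ± 0.16, limma adjusted p = 0.000361) and the liver value 2.06-fold higher (1.04 ± 0.16, adjusted p = 0.000452). Both calls held in all 14 alternatives, with brain differences from -1.28 to -0.71 and liver differences from 0.52 to 1.24.

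Zbtb17 (chromosome 4, 141444673 to 141467937) encodes Miz-1, the zinc finger partner of Myc, which is also needed for early lymphocytes. It had 54.0 CPM in frozen brain, 102 in heart, 79.996 in kidney and 171 in liver, and in FFPE tissue 66.5, 100.3, 108 and 201. Heart and kidney overlapped, brain was below them and liver above. The liver difference was 1.17 ± 0.15 (2.24-fold, limma adjusted p = 0.000117) and nearly equal in frozen (1.17) and FFPE tissue (1.16). In brain it was -1.004 ± 0.15 (2.01-fold lower, adjusted p = 0.000428), and both calls held in all 14 alternatives. Zbtb7b, which encodes the helper T cell factor ThPOK, read 39.8, 75.6, 60.3 and 133 CPM in frozen brain, heart, kidney and liver, and 58.4, 69.3, 85.8 and 119 in FFPE tissue. It was lower in brain (-0.85 ± 0.18, adjusted p = 0.00435) and higher in liver (0.997 ± 0.18, adjusted p = 0.00136). The brain call was lost without frozen brain (adjusted p = 0.21) and the liver call without frozen liver (0.0965).

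Zbtb32 and Zbtb16 were the members called in the opposite directions. Zbtb32 (chromosome 7, 30589680 to 30602819) encodes a repressor that restrains T cell activation and was the member called lower in liver. It had 27.3 CPM in frozen brain, 32.1 in heart, 22.9 in kidney and 12.7 in liver, and 30.6, 38.7, 28.6 and 14.6 CPM in FFPE tissue. Both liver libraries were below all others, at 43 and 38 reads, and both heart libraries above. The liver value was 2.18-fold lower (log2 -1.12 ± 0.25, limma adjusted p = 0.00468), and stayed called under quantile normalization. Without FFPE liver the adjusted p was 0.0764 and without frozen liver 0.0601, with differences of -1.10 and -1.15. Zbtb16 encodes PLZF, a factor of innate-like T cells and of spermatogonial stem cells. Its signal was 112 CPM in frozen brain, 64.4 in heart, 77.6 in kidney and 81.1 in liver, and 97.2, 66.9, 89.1 and 55.1 in FFPE tissue. Brain was above all others, by 0.55 ± 0.17 (adjusted p = 0.0326).

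Zbtb1, needed for lymphocyte development, was higher in liver (0.55 ± 0.16, limma adjusted p = 0.0218), at 101 and 126 CPM in the frozen and FFPE libraries against 56.0 to 90.5 in the others. The call was lost under quantile normalization and without frozen heart (adjusted p = 0.0726), FFPE liver (0.227), frozen liver (0.147) or the preservation term (0.0551). Zbtb24, mutated in an immunodeficiency with reduced satellite DNA methylation, and Zbtb46, a marker of classical dendritic cells, passed in no organ, with liver differences of 0.40 ± 0.17 (adjusted p = 0.115) and 0.57 ± 0.23 (adjusted p = 0.0944). Leukocyte marker genes are known by expression, and their signal here does not measure how many blood cells an organ holds. Their median liver difference was -0.57, with 2 of 10 called lower (7.42% of all tested genes). Their median brain difference was 0.63, with 2 of 10 called higher (8.61%). Their summed signal was 255.68 and 276.03 CPM in FFPE and frozen liver, 394.75 and 409.46 in frozen and FFPE brain and 278.82 to 362.22 in heart and kidney, with none of the 10 at 0 in any library. Their part in the member results was not tested.

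Of the members known from brain or liver, Zbtb20 and Zbtb45 were called in brain and in liver and Zbtb18 in neither. Zbtb20 (chromosome 16, 42875689 to 43634392) patterns the hippocampus and represses the alpha-fetoprotein gene in liver. The frozen libraries read 103 CPM in brain, 70.7 in heart, 146 in kidney and 212 in liver, and the FFPE libraries 115, 115, 188 and 306. Liver was above all others, kidney came next, and brain and heart overlapped. The liver difference was 1.11 ± 0.14 (2.16-fold, limma adjusted p = 0.00012) and held in all 14 alternatives. The heart difference was -0.88 ± 0.14 (1.84-fold lower, adjusted p = 0.00656), and the brain difference -0.52 ± 0.14 (adjusted p = 0.018), a call that ended under quantile normalization and without FFPE brain (0.323), frozen brain (0.0751), FFPE heart (0.0662) or the preservation term (0.0997). Other genes of the table, Tigit among them, overlap the span of Zbtb20, and the sources used here do not say to which gene such reads went.

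Zbtb45, studied in glial precursors, had 55.2 CPM in frozen brain, 57.4 in heart, 139 in kidney and 87.8 in liver, and 46.1, 60.2, 87.2 and 171 CPM in FFPE tissue. The kidney library was the highest of the frozen ones and the liver library the highest of the FFPE ones. It was lower in brain (-0.87 ± 0.23, limma adjusted p = 0.0138) and higher in liver (0.83 ± 0.23, adjusted p = 0.0183), where the difference was 0.21 in frozen and 1.46 in FFPE tissue. The brain call was lost without FFPE brain (adjusted p = 0.198) or frozen brain (0.0838), and the liver call without FFPE liver (0.702) or frozen heart (0.0509) and under quantile normalization (0.127). Zbtb18, which encodes RP58, a repressor needed for cortical neurons, read 122 CPM in frozen and 87.4 in FFPE brain, within the range of 78.8 to 145 in the other libraries. Its brain difference was 0.04 ± 0.18 (adjusted p = 0.882), with 0.41 in frozen and -0.33 in FFPE tissue.

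**Figure D4:**
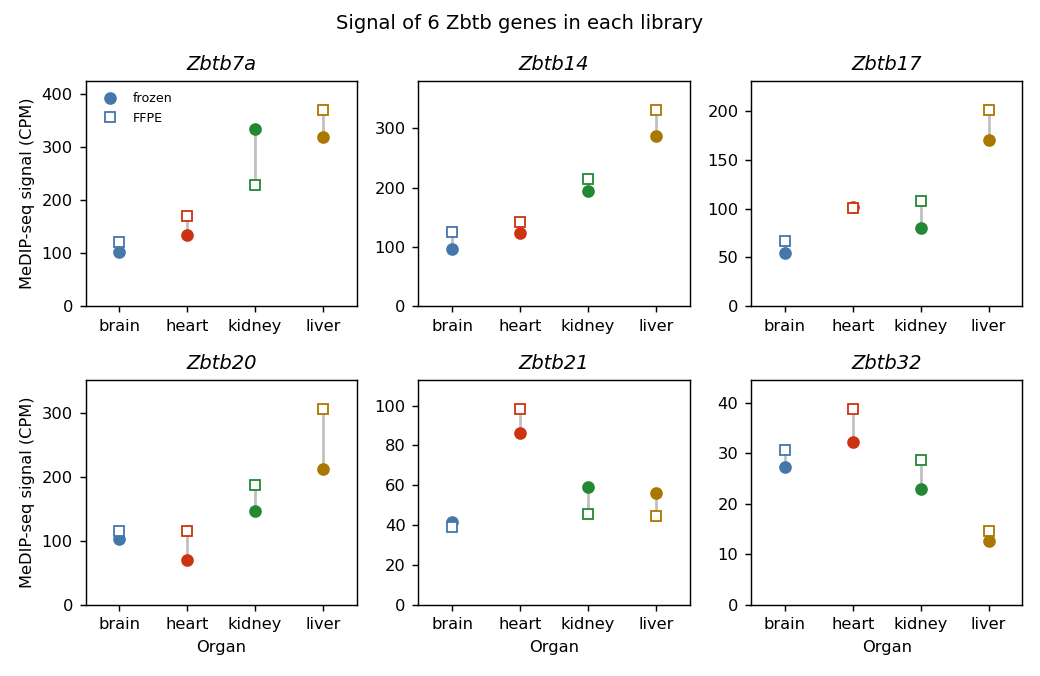
MeDIP-seq signal in CPM (vertical axis, from 0) of 6 Zbtb genes in each organ, with filled circles for frozen and open squares for FFPE libraries, joined by a grey line. Liver is highest for Zbtb14, Zbtb17 and Zbtb20, heart for Zbtb21 at 86.2 and 98.3 CPM, and liver is lowest for Zbtb32 at 12.7 and 14.6 CPM.

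Of the other 26 members, 12 were lower in brain and 13 higher in liver, with none the other way by limma. Of all tested genes 12.8% were lower in brain and 11.8% higher in liver. Among the genes highest in mean level, the group described above that holds 29 members, these shares were 36.9% and 35.2%. Zbtb14 (chromosome 17, 69383175 to 69390752) encodes ZF5, a repressor that binds GC-rich promoters. It had 96.9 CPM in frozen brain, 123 in heart, 194 in kidney and 288 in liver, and 126, 142, 214 and 330.5 CPM in FFPE tissue. In both preservations the order was brain, heart, kidney, liver, and kidney and liver each stood clear of the organ below. The liver difference was 1.10 ± 0.13 (2.14-fold, adjusted p = 7.33e-05) and the brain difference -0.88 ± 0.13 (1.84-fold lower, adjusted p = 0.000431), and both held in all 14 alternatives.

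Zbtb10, a repressor of Sp family genes, had the largest liver difference of the family. Its signal was 68.2 CPM in frozen brain, 60.9 in heart, 89.1 in kidney and 157 in liver, and 56.0, 59.0, 98.5 and 180.5 CPM in FFPE tissue. Liver was 2.39-fold higher (1.26 ± 0.16, limma adjusted p = 0.000103), also in all 14 alternatives. Brain was lower by a log2 difference of -0.67 ± 0.16 (adjusted p = 0.0075), a call that ended under quantile normalization (0.122) and without FFPE brain (0.203). Zbtb2, which has been found at unmethylated CpG islands in stem cells, read 70.2, 89.0, 101 and 162 CPM in frozen brain, heart, kidney and liver and 87.1, 111, 143 and 199 in FFPE tissue. It was higher in liver (0.88 ± 0.14, adjusted p = 0.000512) and lower in brain (-0.72 ± 0.14, adjusted p = 0.00234), and neither call held under quantile normalization (adjusted p = 0.0582 and 0.058). The brain call was also lost without either brain library (adjusted p = 0.0618 and 0.053).

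Zbtb34 and Zbtb39 were lower in brain (-0.74 and -0.61, limma adjusted p = 0.00137 and 0.00382) and higher in liver (0.69 and 0.63, adjusted p = 0.00199 and 0.00284). Quantile normalization ended all 4 of these calls, and the brain calls were lost without frozen brain (adjusted p = 0.0536 and 0.151). The liver calls were lost without FFPE liver (0.0681 and 0.0659), and that of Zbtb39 also without frozen liver (0.0648). Zbtb8a (-0.75 in brain and 0.93 in liver), Zbtb22 (-0.76 and 0.76), Zbtb37 (-0.77 and 0.68), Zbtb49 (-0.68 and 0.71) and Zbtb8b (-0.71 and 0.81) were called in the same directions, Zbtb8a at an adjusted p of 0.0048 and 0.00101. All 5 brain calls were lost without frozen brain (adjusted p from 0.0955 for Zbtb8a to 0.475 for Zbtb8b), and those of Zbtb8a, Zbtb22 and Zbtb37 also without FFPE brain (0.0807, 0.068 and 0.0696). All 5 liver calls were lost without frozen liver (from 0.0655 for Zbtb8a to 0.205 for Zbtb37), those of Zbtb22, Zbtb37 and Zbtb49 also without FFPE liver (0.16, 0.11 and 0.13), and that of Zbtb37 without FFPE heart (0.0503). Quantile normalization ended the liver calls of Zbtb8b, Zbtb22, Zbtb37 and Zbtb49 (0.2, 0.0532, 0.094 and 0.173) and the brain calls of Zbtb8b and Zbtb49 (0.141 and 0.069).

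Zbtb9 and Zbtb21 were called in brain but not in liver, at -0.66 and -0.62 (limma, adjusted p = 0.0419 and 0.0233). Zbtb26, Zbtb41 and Zbtb42 were called in liver but not in brain, at 0.81, 0.54 and 0.65 (adjusted p = 0.0182, 0.0222 and 0.0407), and whether brain and liver differ in this was not tested. Zbtb9 lost its call without frozen brain (0.656), either heart library (0.0536 and 0.117) or either liver library (0.0804 and 0.0702), with voom precision weights (0.0743) and without the preservation term (0.0783), and Zbtb21 without either brain library (0.139 and 0.283), FFPE heart (0.0869) or frozen liver (0.056). Zbtb26 and Zbtb41 lost theirs without frozen heart (0.0532 and 0.0746), FFPE liver (0.18 and 0.261) or frozen liver (0.164 and 0.124), and under quantile normalization (0.0556 and 0.566). Zbtb42, mutated in a muscle disease, lost its call without FFPE brain (0.0983), either heart library (0.0826 and 0.0948) or FFPE liver (0.68), under quantile normalization (0.184) and without the preservation term (0.0625).

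In 4 pairs of members the genes lie next to each other, and within 3 of the pairs 1 gene was called in liver and its neighbour was not. Zbtb1 and Zbtb25 overlap by 164 bases on chromosome 12. Zbtb1 was higher in liver, while Zbtb25 had 6.86 and 8.52 CPM in frozen and FFPE liver against 10.6 to 21.9 in the other libraries (difference -0.85 ± 0.39, limma adjusted p = 0.144). Zbtb6 and Zbtb26 are 1.25 kilobases apart on chromosome 2. Zbtb26 had 53.3 and 50.9 CPM in liver against 23.4 to 35.7 elsewhere, and Zbtb6 had 11.2 and 4.36 against 5.62 to 24.8 (difference -0.94 ± 0.44, adjusted p = 0.146). Zbtb34 and Zbtb43 are 18.96 kilobases apart, and the liver difference of Zbtb43 was 0.16 ± 0.22 (adjusted p = 0.674). The neighbours Zbtb8a and Zbtb8b, 47.74 kilobases apart on chromosome 4, were both higher in liver. The difference between neighbours was not tested.

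In heart, 1 of 39 members was higher, against 0.162% of all tested genes, and 3 were lower, against 1.97%. The member median was -0.09, against 0.07 for all genes, and turned to 0.04 under quantile normalization, so no direction of the family is given for heart. Of all genes called in heart 7.57% were higher, and 32.6% under quantile normalization. Both heart libraries lay above all others for 3 members (4.78% of all tested genes) and below for 0 (3.47%). Zbtb21 (chromosome 16, 97945795 to 97962627) was the member with more signal in heart. It read 41.5 CPM in frozen brain, 86.2 in heart, 59.0 in kidney and 56.2 in liver, and 39.3, 98.3, 45.6 and 44.5 CPM in FFPE tissue. Both heart libraries were above all 6 others, and heart was 1.95-fold higher (0.96 ± 0.18, limma adjusted p = 0.012). The lower members were Zbtb20, Zbtb10 (-0.73 ± 0.16, adjusted p = 0.0243) and Zbtb14 (-0.53 ± 0.13, adjusted p = 0.0443), all 3 of them also called higher in liver, whose libraries enter the heart comparison.

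The heart calls rested on few libraries. Without FFPE heart or without frozen heart limma called 0 members, and of all tested genes 0 higher and 0.0231% and 0.0154% lower. Zbtb21 then differed by 0.74 and 1.19 (adjusted p = 0.446 and 0.26) and Zbtb20 by -1.05 and -0.71 (0.0919 and 0.489). The lower count was 1 without frozen brain (1.47% of all tested genes) or FFPE liver (0.608%) and 2 without FFPE brain (1.24%) or frozen liver (1.09%). Without FFPE kidney 6 were lower (5.36% of all tested genes) and 3 higher (2.73%). Zbtb10 had an adjusted p of 0.0571 without frozen brain and 0.0921 without FFPE liver. Without FFPE heart or frozen heart Zbtb10 had 0.385 and 0.539 and Zbtb14 0.49 and 0.68. Zbtb14 had 0.0595, 0.108, 0.11 and 0.104 without frozen brain, FFPE brain, FFPE liver and frozen liver. It was also lost with no filter on low values (0.0613), and Zbtb14 and Zbtb10 both under quantile normalization (0.328 and 0.0776) and without the preservation term (0.169 and 0.0626), where Zbtb20 was lost too (0.0832).

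In kidney, limma called 0 of 39 members, against 0.897% of all tested genes higher and 0.566% lower. Of the members, 7 had an unadjusted p under 0.05. Voom precision weights called 2 members higher and 1 lower, and of all 25982 tested genes 858 higher and 141 lower. The smallest p belonged to Zbtb7a (0.62 ± 0.16, adjusted p = 0.0649), Zbtb43 (-0.78 ± 0.22, adjusted p = 0.0854) and Zbtb12 (1.22 ± 0.37, adjusted p = 0.102). Zbtb12, a gene of the major histocompatibility region, had 11.0 CPM in frozen brain, 10.7 in heart, 36.9 in kidney and 21.8 in liver, and 12.1, 32.8, 35.2 and 13.4 CPM in FFPE tissue. The kidney libraries lay above all others for this 1 member (3.53% of all tested genes) and below for 1, Zbtb3 (4.38%). For Zbtb12 heart differed more between its 2 libraries than any other organ did. Zbtb43 had 25.3 CPM in frozen and 46.5 in FFPE kidney against 42.3 to 72.8 elsewhere. With frozen kidney as the only kidney library (without FFPE kidney) 3 members were higher, Zbtb7a at 1.04 (adjusted p = 0.000228), Zbtb12 and Zbtb45, against 5.86% of all tested genes, and 2 lower, Zbtb43 and Zbtb6, against 8.71%. Frozen kidney had the widest spread of log2 values of the 8 libraries, and the member median in kidney, 0.09, turned to -0.01 under quantile normalization.

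Between preservations, limma called 0 of 39 members, against 0.62% of all tested genes higher and 0.735% lower in FFPE tissue. An unadjusted p under 0.05 was reached by 6 members. Voom precision weights called 2 members higher, Zbtb24 and Zbtb20, and of all 25982 tested genes 209 higher and 232 lower. The member median was 0.16 (FFPE minus frozen), against 0.02 for all genes, and 0.09 under quantile normalization. The median was 0.20 in brain, 0.05 in heart, 0.15 in kidney and 0.14 in liver. All 4 organs had more signal in FFPE tissue for 10 members and less for 0, which was not counted over all tested genes. Zbtb24 had the smallest p, with 46.5, 58.8, 46.9 and 61.5 CPM in frozen brain, heart, kidney and liver and 63.2, 72.5, 82.5 and 103 CPM in FFPE tissue. All FFPE values were above all frozen ones, which held for 1 member (1.31% of all tested genes), and the reverse for 0 (1.84%). The difference was 0.58 ± 0.15 (adjusted p = 0.0771). Zbtb8a (0.51 ± 0.14, adjusted p = 0.11) and Zbtb20 (0.44 ± 0.12, adjusted p = 0.124) followed. With FFPE kidney or frozen kidney left out, 1 member, Zbtb5, was called higher, against 0.774% and 0.851% of all tested genes. These runs are not separate evidence. A lone kidney library does not enter the FFPE difference, so both give the same one.

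**Figure D5:**
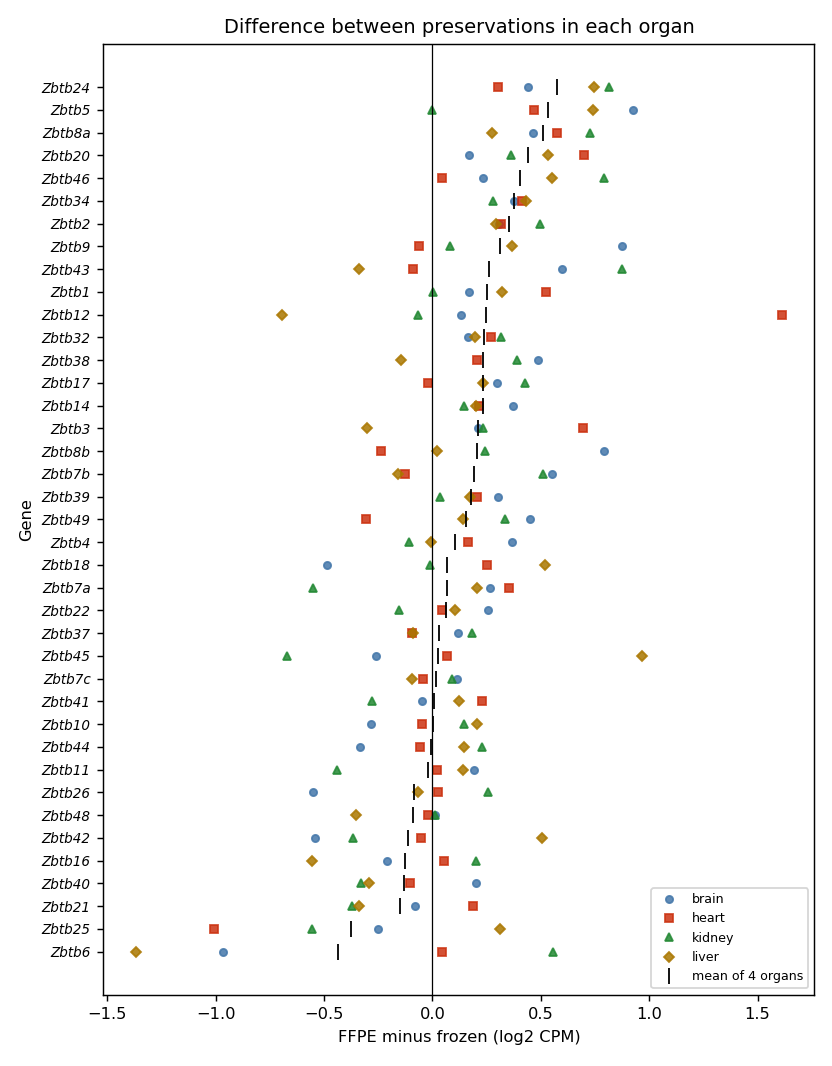
FFPE minus frozen log2 CPM (horizontal axis) for each Zbtb gene, with 1 symbol per organ and a black tick at the mean of the 4 organs. The organs scatter widely for Zbtb12 (from -0.69 in liver to 1.61 in heart) and Zbtb6, and lie together on the right for Zbtb24.

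In all, 25 members were called in at least 1 comparison, a share not counted over all tested genes, and 14 in none. The latter were Zbtb3, Zbtb5, Zbtb6, Zbtb7c, Zbtb11, Zbtb12, Zbtb18, Zbtb24, Zbtb25, Zbtb40, Zbtb43, Zbtb44, Zbtb46 and Zbtb48. Zbtb7c missed the threshold in liver (0.40 ± 0.14, limma adjusted p = 0.0506). Zbtb40 had 116 to 167 CPM and Zbtb44 97.1 to 128 over the 8 libraries. Zbtb48, which encodes the telomere-binding protein TZAP, had 25.6 to 36.1 CPM. Zbtb3, at 15 to 45 reads, had a standard error of 0.43 for each organ difference, so at this depth only a large difference could be called.

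The BTB domain is shared with proteins that carry Kelch repeats in place of zinc fingers and serve as adaptors of the CUL3 ubiquitin ligase. Among 37 such genes limma called 17 lower and 1 higher in brain, and 20 higher and 0 lower in liver. For all tested genes the share with a lower call in brain was 12.8%, and with a higher call in liver 11.8%. The top 25% by mean level had 36.9% and 35.2%. How many Kelch or corepressor genes lie in this top 25% was not counted, so their counts do not set BTB genes or partners apart. The Kelch medians were -0.56 in brain and 0.59 in liver, beside -0.52 and 0.57 for the Zbtb genes. Among 8 BTB zinc finger genes without a Zbtb symbol, Mynn (0.97, adjusted p = 0.00104) and Patz1 (2.24, adjusted p = 0.000942) were higher in liver and lower in brain (-0.75 and -1.21). They were the only ones of the 8 called in brain or liver. The medians of the 8 were -0.13 in brain and 0.14 in liver, with 2 positive in brain and 3 negative in liver. The tumour suppressor gene Hic1 was lower in heart (-1.65, adjusted p = 0.00419) and higher in kidney (1.18, adjusted p = 0.0307). Of 25 corepressor and cullin genes, 11 were lower in brain and 0 higher, among them Chd4 (-0.72, adjusted p = 0.0019), a remodeller of the NuRD complex. In liver 5 were higher and 0 lower, with a median of 0.09, and Chd4 was again among them (0.91, adjusted p = 0.000316). The background shares given for the Kelch genes apply to these 25 genes too.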

How the data were processed

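The authors aligned reads to mm10 with Bowtie2, counted them with featureCounts and used limma, per the submitters' processing notes (the sources used here do not give versions, the counted feature, strand or pooling). The deposited values are log2 CPM for 27179 genes in 8 columns. They step by whole reads with 0.5 added (tolerance 1e-04, 100% of values), and reads recovered this way served depth, shares and 2 alternatives. Those reaching 1 CPM in 2 or more libraries were fitted (25982; limma 3.58.1, R 4.3.3) with terms for organ and preservation, a variance trend, 3 residual and 13.1 prior degrees of freedom. The planned 8 groups of 2 could not be fitted on 8 columns. The test was tried on simulated data with changes added for kidney or FFPE tissue only, and the outcome is not given here. Each gene had the same noise in all libraries there, so the trial does not bear on their unequal spread. Nothing says that samples came from separate animals, so p-values measure only the spread between these libraries. Named members were those with the smallest p in each comparison (up to 8 a direction; the 3 smallest where fewer than 3 were called) and 13 chosen by role; other called members are given in short. Members, lists and alternatives were chosen with earlier results of these data known, and the top 25% by level was added after the data were seen. RefSeq tables gave coordinates and promoters. Input values were not analysed here.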

Additional observations from a re-analysis of the deposited data

Results flagged for a closer look

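Among the 4 FFPE libraries, Zbtb21 had 98.3 CPM in heart against 39.3 to 45.6 CPM in the other 3 organs, a gap that on log2 values was 0.837 of the whole range, above Dixon's 95% critical value for 4 samples. The frozen heart library had 86.2 CPM, also the highest of its preservation. In all, 78 sets of 4 libraries were examined (39 members in each preservation) and 1 stood out, where chance gives about 1 in 20. The 4 libraries of a set come from different organs and are not replicates.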

How the results depend on the processing

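No paired analysis was possible because the 8 columns carry no replicate number. Of 46 calls of single members, 8 held in all 14 alternatives (8 leave out 1 library, 6 change the processing) and 0 changed direction. Quantile normalization gave 12 members lower in brain (11.0% of all tested genes), 1 lower in heart (1.34%), 7 higher (5.1%) and 2 lower (4.98%) in liver. Centring and a fit without the preservation term (1-factor) each gave 0 higher in brain, and the latter 0 lower in heart. In kidney, adding 2 reads gave 1 higher (340 of all 25982 tested genes). Voom precision weights gave 2 higher (858 of all) and 1 lower (141) in kidney, and 2 higher (209) in FFPE tissue. With each library left out in turn, the organ it came from keeps 1 library, which is assumed to vary like the others. That library does not enter the FFPE difference, so leaving out one or the other library of an organ gives the same FFPE difference. The counts then ranged from 0 to 2 higher and 4 to 23 lower in brain, 0 to 3 higher and 0 to 6 lower in heart, 0 to 3 higher and 0 to 2 lower in kidney, 9 to 24 higher and 0 to 2 lower in liver, and 0 to 1 higher and 0 lower in FFPE tissue. Fewer libraries were fitted in these, and the counts moved both up and down. The cause of the changes was not tested for any setting. Low reads limit Zbtb3 and Zbtb6.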
